A study of Mus musculus with 6 samples.

Results

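The circadian clock genes examined here are Arntl (also called Bmal1), Clock, Per1, Per2, Per3, Cry1, Cry2, Nr1d1, Dbp and Bhlhe41, 10 of the 18160 genes in the table, chosen by symbol. They were read in the prefrontal cortex of adult C57BL/6J mice at postnatal day 56, in 3 samples heterozygous for Cyfip2 (HET) and 3 wild-type samples (WT), by stranded poly(A) RNA sequencing. CYFIP2 is a subunit of the WAVE complex, which promotes branched actin assembly. The labels name the HET mice Cyfip2 mutants and give neither the type of allele, nor the sex, nor the hour at which tissue was taken, nor whether each sample is a separate animal, so the p-values measure only the spread between these samples. All 10 genes averaged at least 10 normalized counts over the 6 samples and were tested among 15151 genes.

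The mammalian clock is a loop of transcription and translation. BMAL1 (the product of Arntl) and CLOCK bind E-boxes and drive Per, Cry, Nr1d1, Dbp and Bhlhe41. PER and CRY proteins then repress BMAL1 and CLOCK, and REV-ERBα (the product of Nr1d1) represses Arntl through ROR elements. As a result Arntl peaks in mouse tissues at nearly the opposite time of day from Dbp and Nr1d1, with the Per genes following them. The relative level of these genes is therefore often used to judge the time at which a tissue was taken. Neurons outside the central pacemaker, those of the cortex included, carry this loop too.

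Promoter windows of RefSeq (GRCm38.p6, from 250 bases before to 50 bases after each start) were present for 9 of the 10 genes, in 13 windows. They were searched for elements through which the loop is known to act. The searched letters were CACGTG for the E-box, TTANGTAA for the D-box bound by DBP, TAGGTCA for the ROR element and TGACGTCA for the cAMP response element, on both strands. The stretches of 30 bases below, written on the strand of the gene with the element in capitals, hold every match found, in 5 of the 13 windows. The windows of Clock, Cry2, Nr1d1 and Dbp and a second window each of Arntl and Per1 held none.
Cry1, E-box, chr10:85185097-85185126, minus strand: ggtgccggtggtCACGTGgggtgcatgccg
Bhlhe41, E-box, chr6:145865556-145865585, minus strand: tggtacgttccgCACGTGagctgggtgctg
Per1, E-box, chr11:69098771-69098800, plus strand: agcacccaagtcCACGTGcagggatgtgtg
Per3, D-box, chr4:151044852-151044881, minus strand: cgacccgcgcgTTATGTAAggtactcgggg
Per3, D-box, chr4:151044805-151044834, minus strand: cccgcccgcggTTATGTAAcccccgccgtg
Arntl, ROR element, chr7:113207530-113207559, plus strand: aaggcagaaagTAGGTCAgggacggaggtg

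The E-boxes begin 60 bases before the start in Cry1, 153 in Bhlhe41 and 166 in Per1, and the ROR element of Arntl begins 30 bases after the start. An E-box stood in 3 of the 13 windows, and in 7.15% of all 32851 promoter windows of the same length. The D-box stood in 1 of the 13 windows and in 2.32% of all, and the ROR element in 1 of 13 and in 2.61% of all. The cAMP response element was found in none of the 13 windows and in 1.79% of all, and no matches overlapped each other. These are matches of letters only. A window without a match says nothing about sites elsewhere in the gene.

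None of the 10 clock genes passed an adjusted p of 0.05 between genotypes by limma-trend, against 2 of the 15151 genes tested (0.0132%). At an unadjusted p under 0.05 there was 1 clock gene, Cry1, where 5.07% of all genes lay under that value. The median log2 fold change (HET over WT) of the 10 genes was -0.09, beside 0.00 for all genes tested. Below WT were 8 of the 10, and 7450 of the 15151 genes tested. The fold changes ran from -0.19 for Cry1 to 0.01 for Arntl. Cyfip2 itself had 28356, 28578 and 29567 normalized counts in HET samples 1, 2 and 3, against 45454, 43174 and 45627 in WT samples, with every HET sample below every WT sample.

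**Figure D1:**
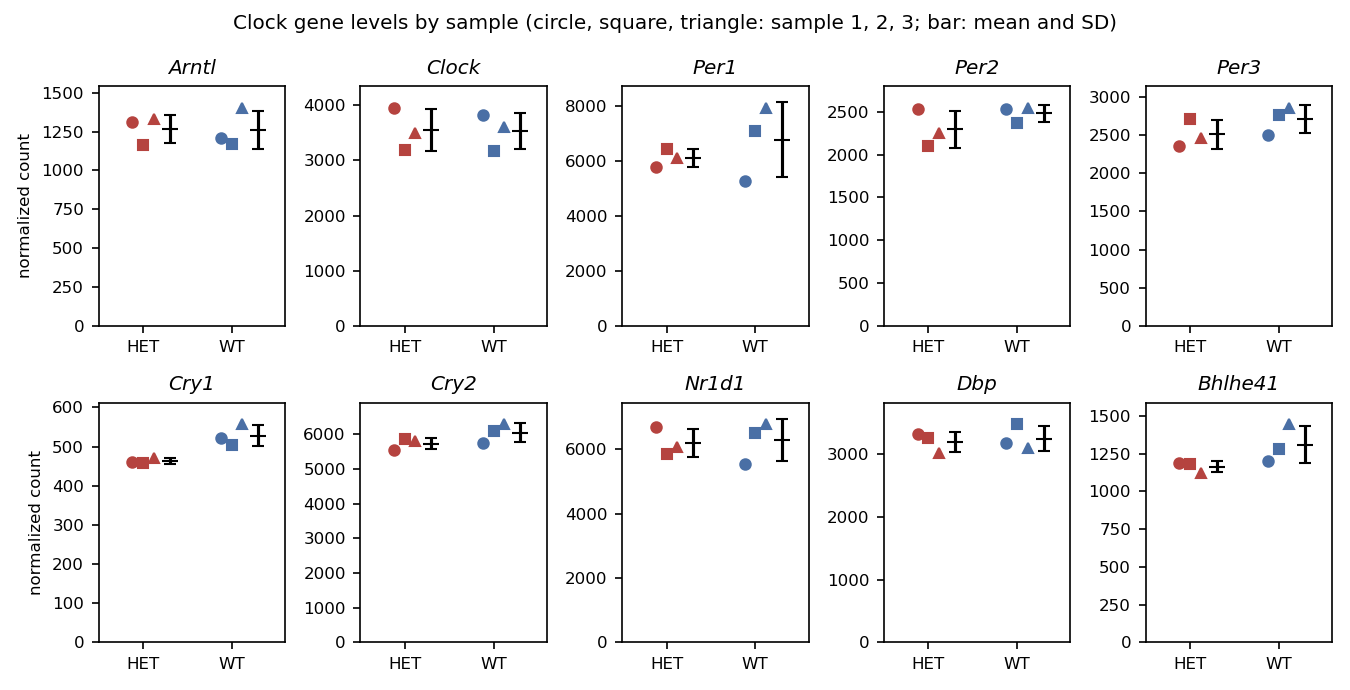
Normalized counts (y axis, from 0) of the 10 clock genes in HET (left) and WT (right) samples; circles, squares and triangles are samples 1, 2 and 3, and the bars show the mean with its SD. The genotypes are apart in Cry1 and Bhlhe41 and overlap in the other 8 genes.

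The activators of the loop were at nearly equal mean levels in the 2 genotypes. Arntl (ENSMUSG00000055116), the partner of CLOCK, had 1312, 1164 and 1328 normalized counts in HET samples, against 1206, 1172 and 1403 in WT samples. The highest and the lowest value lay 1.20-fold apart, and the genotypes overlapped. On the log2 scale the fold change of Arntl was 0.01 ± 0.09 (SE; interval -0.18 to 0.20), and limma-trend gave it an adjusted p of 1.00. Clock (ENSMUSG00000029238), which also carries histone acetyltransferase activity, had 3955, 3192 and 3501 normalized counts in HET samples, against 3819, 3168 and 3611 in WT samples. Its log2 fold change was 0.01 ± 0.09 (SE), with an interval of -0.20 to 0.21. In both genotypes sample 1 was the highest for Clock and sample 2 the lowest. All intervals given here are 95% intervals of the fitted model, and a p above the threshold does not show equal levels.

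The Per genes, which encode the scaffold proteins of the repressor complex, had lower means in HET samples without passing the test. Per1 (ENSMUSG00000020893) had 5781, 6447 and 6121 normalized counts in HET samples, against 5281, 7111 and 7939 in WT samples. WT sample 1 was the lowest of all 6 and WT sample 3 the highest, so the HET values lay inside the WT range. For Per1 the log2 fold change was -0.13 ± 0.12 (SE; interval -0.41 to 0.15), and it was -0.0042 without WT sample 3, -0.08 without WT sample 2 and -0.30 without WT sample 1. Per2 (ENSMUSG00000055866) had 2532, 2107 and 2253 normalized counts in HET samples, against 2531, 2367 and 2548 in WT samples. HET sample 1 stood at the level of WT, and the other two HET samples lay below all WT samples. For Per2 the log2 fold change was -0.11 ± 0.07 (SE; interval -0.28 to 0.05), and it was -0.05 without HET sample 2 and -0.19 without HET sample 1. Per3 (ENSMUSG00000028957) had 2350, 2713 and 2462 normalized counts in HET samples, against 2503, 2756 and 2856 in WT samples. Only HET sample 2 reached into the WT range for Per3, and its log2 fold change was -0.11 ± 0.07 (SE; interval -0.27 to 0.05). For Per3 that value was -0.06 without HET sample 1, -0.07 without WT sample 3, -0.17 without HET sample 2 and -0.16 without WT sample 1.

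Cry1 was the clock gene with the smallest p. Cry1 (ENSMUSG00000020038; chromosome 10, 85131700 to 85185064, minus strand, GRCm38) encodes a cryptochrome whose loss shortens the circadian period in mice. It had 461, 457 and 472 normalized counts in HET samples, against 522, 504 and 557 in WT samples. All 3 HET samples were below all 3 WT samples, and they spread less among themselves than the WT samples did, with means of 463 ± 7.40 in HET and 528 ± 26.7 in WT (SD, n = 3 each). The HET level was 87.9% of WT, with an interval of 77.9% to 99.1%. On the log2 scale this was -0.19 ± 0.08 (SE), and limma-trend gave Cry1 an unadjusted p of 0.038 and an adjusted p of 0.95. An exact permutation test (two-sided) gave p = 0.1, below which 3 samples against 3 cannot go.

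Cry2, the paralogue of Cry1 and a repressor of the same complex, had a smaller fold change. Cry2 (ENSMUSG00000068742) had 5537, 5852 and 5807 normalized counts in HET samples, against 5755, 6097 and 6287 in WT samples. The genotypes overlapped because WT sample 1 lay below HET samples 2 and 3. Its log2 fold change was -0.08 ± 0.05 (SE), with an interval of -0.20 to 0.04, and was -0.05 without WT sample 3. The difference in fold change between Cry1 and Cry2 was not tested.

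Bhlhe41 was the other gene whose genotypes did not overlap. Bhlhe41 (ENSMUSG00000030256; chromosome 6, 145858243 to 145865558, minus strand), also called DEC2, encodes a basic helix-loop-helix repressor that competes at E-boxes. It had 1185, 1183 and 1122 normalized counts in HET samples, against 1203, 1278 and 1444 in WT samples. The gap was narrow, since HET sample 1 lay just under WT sample 1, and WT sample 3 was the highest. The means were 1163 ± 35.9 in HET and 1308 ± 124 in WT (SD, n = 3 each). The log2 fold change was -0.17 ± 0.08 (SE; interval -0.34 to 0.01), and limma-trend gave Bhlhe41 an unadjusted p of 0.058 and an adjusted p of 0.95. Without WT sample 3 the log2 fold change of Bhlhe41 was -0.09. Genotypes that did not overlap, with HET lower, were thus seen in 2 of the 10 clock genes, and in 803 of all genes tested (5.3%). With HET higher there were 0 of the 10 clock genes and 5.15% of all genes.

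Nr1d1 and Dbp, the members that swing most over the day in many mouse tissues, differed little between genotypes. Nr1d1 (ENSMUSG00000020889), which encodes the nuclear receptor REV-ERBα, had 6673, 5854 and 6059 normalized counts in HET samples, against 5555, 6516 and 6772 in WT samples. The genotypes overlapped over most of their range. For Nr1d1 the log2 fold change came to -0.02 ± 0.08 (SE), with an interval of -0.20 to 0.16. Dbp (ENSMUSG00000059824), a PAR-bZIP factor that acts on D-boxes, had 3321, 3256 and 3027 normalized counts in HET samples, against 3177, 3482 and 3096 in WT samples. Its log2 fold change was -0.02 ± 0.06 (SE), with an interval of -0.16 to 0.12, and its highest value was 1.15 times its lowest.

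Exons of Arntl, Cry2, Nr1d1, Dbp and Bhlhe41 overlap genes on the opposite strand in GENCODE M21 (Gm45355, D930015M05Rik, Thra, Sphk2 and Gm43909, in that order). The library kit keeps strand, but no source used here says whether the counting used it, so reads in those overlaps are uncertain. Per1 and Nr1d1 lie on chromosome 11, as Cyfip2 does, 22.8 and 52.5 Mb beyond its end.

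Per kb of the longest coding transcript, the genes fell into 3 levels. Nr1d1 was the highest, at 2277 ± 157 normalized counts per kb in HET and 2308 ± 236 in WT samples (SD, n = 3 each), followed by Dbp at 1743 ± 84.1 in HET and 1770 ± 111 in WT samples. Over the 6 samples Nr1d1 and Dbp did not overlap, whereas Cry2 and Per1, next in order, overlapped, at 1393 to 1581 and at 1131 to 1700 normalized counts per kb. Per3, Per2, Arntl and Clock formed a middle level between 325 and 476 normalized counts per kb, each overlapping its neighbour. Bhlhe41 and Cry1 were the lowest, at 183 to 235 and at 151 to 184 normalized counts per kb. The scale is approximate, because no source used here gives the transcript lengths behind the authors' values.

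The opposition of Arntl to its counterparts was then read per sample. A phase index was formed as the mean of Dbp, Nr1d1, Per1, Per2 and Per3 minus Arntl, each as log2(value + 1) centred on the mean of the 6 samples, so that a high index marks a sample with high Dbp, Nr1d1 and Per relative to Arntl. The index was -0.07, 0.08 and -0.14 in HET samples 1, 2 and 3, against -0.02, 0.19 and -0.03 in WT samples. It was highest in WT sample 2 and lowest in HET sample 3, the whole range was 0.33 log2 units, and the genotypes overlapped. The mean was -0.04 ± 0.11 in HET and 0.04 ± 0.12 in WT samples (SD, n = 3 each), a difference of -0.09, which is less than the SD of either genotype. Without WT sample 2 the difference was -0.018, and without HET sample 2 it was -0.15. No test was made of the index, since its genes were chosen with earlier results known.

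**Figure D2:**
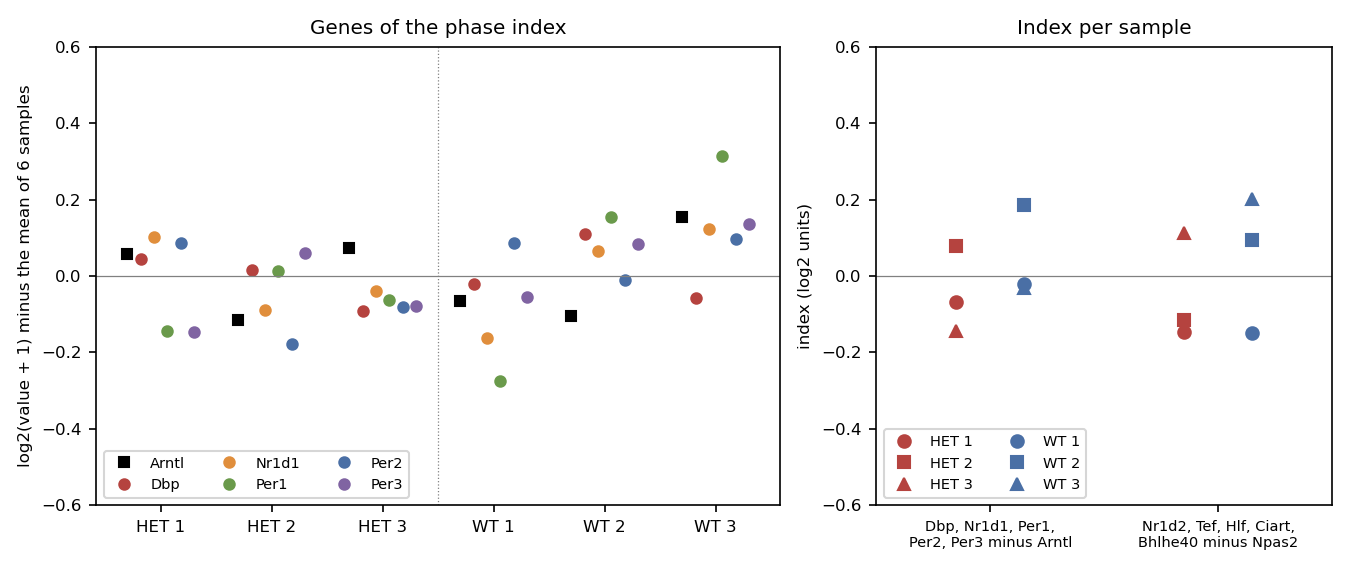
Left, log2(value + 1) of the 6 index genes minus their 6-sample mean (y axis) in each sample, HET left of WT; black squares are Arntl. Right, the phase index per sample and the index from genes outside the 10; both span less than 0.4 log2 units, with the genotypes interleaved.

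Within that narrow range the genes did not line up as 2 opposing arms. The ratio of Arntl to Dbp was 0.395, 0.358 and 0.439 in HET samples, against 0.379, 0.337 and 0.453 in WT samples, a 1.35-fold range over all 6. Arntl and Dbp ran in opposite directions across the 6 samples, with Pearson's r = -0.63 (exact permutation p = 0.19) and Spearman's rho = -0.66 (exact permutation p = 0.18). Arntl and Nr1d1 ran in the same direction instead, with r = 0.56 (exact permutation p = 0.21) and rho = 0.60 (exact permutation p = 0.24). The r of Arntl with Per1 was 0.30 (exact permutation p = 0.53) and the rho 0.14 (exact permutation p = 0.80). The r of Arntl with Per2 was 0.48 (exact permutation p = 0.34) and the rho 0.66 (exact permutation p = 0.18). The r of Arntl with Per3 was -0.10 (exact permutation p = 0.87) and the rho -0.029 (exact permutation p = 1.00). Of the 5 relations, 3 were thus positive and 2 negative, and no permutation p adjusted over the 5 relations was below 0.40. Within genotypes, as deviations from each genotype's mean, r was -0.63 for Dbp, 0.57 for Nr1d1, 0.34 for Per1, 0.62 for Per2 and -0.08 for Per3. Without HET sample 2 and WT sample 3, the samples farthest from the median of Arntl, r was -0.62 for Dbp, 0.19 for Nr1d1, -0.30 for Per1, -0.22 for Per2 and -0.83 for Per3, so the signs for Per1 and Per2 rest on those samples.

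An index built from clock genes outside the 10 put the samples in another order. It was the mean of Nr1d2, Tef, Hlf, Ciart and Bhlhe40 minus Npas2, the paralogue of Clock that also pairs with BMAL1. This index was -0.15, -0.11 and 0.11 in HET samples, against -0.15, 0.10 and 0.20 in WT samples. HET sample 3, the lowest sample by the first index, was among the 2 highest by this one, and WT sample 3 moved to the top. The genotype means differed by -0.10 here, again with overlap. The hour of collection of each sample is not given in the labels, and no hour was assigned from these values.

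The other 24 genes of the clock pathway held 0 genes past an adjusted p of 0.05 in either direction by limma-trend, and 3 at an unadjusted p under 0.05, beside 5.07% of all genes tested. Their median log2 fold change was -0.05, with 10 above WT and 14 below, beside 7701 above and 7450 below among all genes tested. Npas2 was at 0.04 ± 0.08 and Nr1d2, the paralogue of Nr1d1, at 0.02 ± 0.06 (log2 fold change ± SE). Rora, an activator of Arntl at ROR elements, was at -0.12 ± 0.08 on the same scale. Rorb, a related receptor that is also a marker of layer 4 neurons, had 1898, 1850 and 2192 normalized counts in HET samples, against 1965, 2450 and 2766 in WT samples. The genotypes overlapped for Rorb, whose log2 fold change was -0.26 ± 0.12 (SE; unadjusted p = 0.047, adjusted p = 0.95 by limma-trend). In bulk tissue, fewer cells of a type and less RNA per cell cannot be told apart.

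Among the further repressors, Bhlhe40, the paralogue of Bhlhe41, was at -0.03 ± 0.09, and Ciart, a repressor of CLOCK and BMAL1, at -0.09 ± 0.10 (log2 fold change ± SE). All 3 D-box factors were below WT and none passed the test: Tef was at -0.11 ± 0.06, Hlf at -0.07 ± 0.07 and Nfil3, which opposes DBP at D-boxes, at -0.15 ± 0.19 (log2 fold change ± SE). The 7 genes that control clock protein stability lay between -0.09 and 0.05, among them the casein kinases Csnk1d at 0.03 ± 0.07 and Csnk1e at -0.09 ± 0.06 (log2 fold change ± SE).

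The 5 clock outputs shared by many tissues held the highest and the lowest log2 fold change of the 24. Tspan4, a tetraspanin, had 335, 307 and 330 normalized counts in HET samples, against 426, 372 and 378 in WT samples, with all HET samples below all WT samples. Its log2 fold change was -0.27 ± 0.09 (SE; unadjusted p = 0.016, adjusted p = 0.91 by limma-trend). Wee1, a kinase that restrains entry into mitosis, overlapped between genotypes, with a log2 fold change of -0.24 ± 0.10 (SE; unadjusted p = 0.034, adjusted p = 0.95 by limma-trend). Nampt, the rate-limiting enzyme of NAD salvage, had 2055, 1882 and 1851 normalized counts in HET samples, against 1787, 1704 and 1764 in WT samples, and its log2 fold change was 0.14 ± 0.06 (SE). Tspan4 and Nampt were the 2 of the 24 genes whose genotypes did not overlap, beside 10.5% of all genes tested, and were named after their values were seen. Usp2, a deubiquitinase, and Tsc22d3, also a glucocorticoid target, were at -0.08 ± 0.08 and 0.02 ± 0.07 (log2 fold change ± SE).

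**Figure D3:**
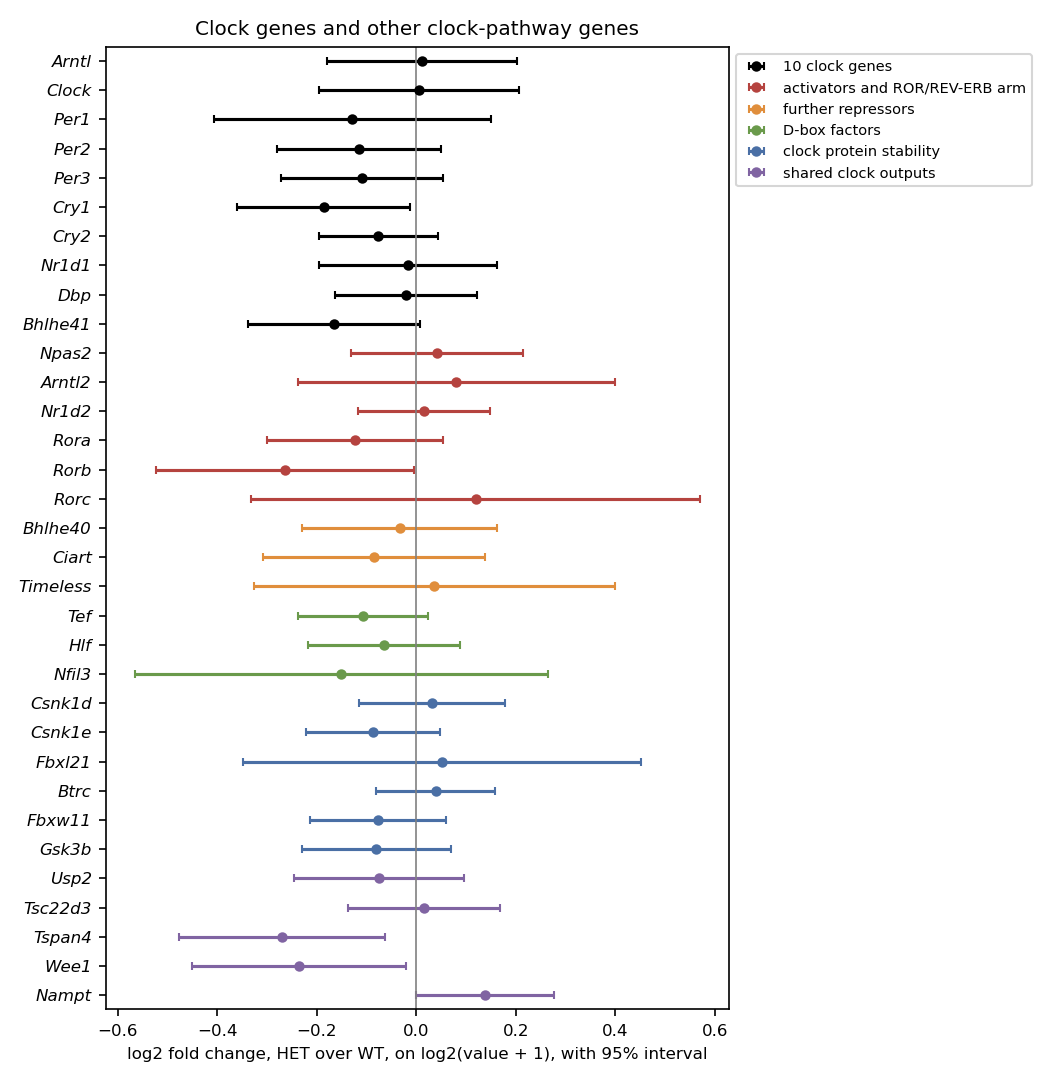
Log2 fold change (x axis, HET over WT, on log2(value + 1)) with its 95% interval for the 10 clock genes (black) and other genes of the pathway (colours by role). All points shown lie within 0.3 of 0, and none passed the adjusted threshold.

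Per1 had the highest SD within genotypes of the 10 genes, through its WT samples. Pooled over genotypes it was 0.22 on the log2 scale, higher than that of 81.3% of all genes tested. Among HET samples alone Per1 had an SD of 0.08 and ranked 6 of the 10, below Clock at 0.16, Per2, Per3, Arntl and Nr1d1, and among WT samples it had 0.30 and ranked first. Cry1 and Cry2 were at the other end of the pooled values, with SDs of 0.05 and 0.06 and ranks of 12.5% and 13.4%, and Dbp was at 0.08 and 31.1%. The median SD of the 10 genes was 0.10, beside 0.11 for all genes tested and 0.45 for 12 activity-induced genes. Per1 is itself inducible by neuronal activity through CREB and by glucocorticoids.

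The values of such genes are therefore given beside it. Arc, a synaptic immediate early gene, had 15493, 21770 and 15404 normalized counts in HET samples, against 15316, 26798 and 30590 in WT samples. As for Per1, WT samples 2 and 3 were the highest of all and WT sample 1 was the lowest. Arc was the 1 gene of the 12 with WT samples 2 and 3 on top. HET sample 2 exceeded WT sample 2 in 10 of the 12, Egr1 among them. In Ier2 it lay above WT sample 3 instead, at 546 against 530 normalized counts. WT sample 3 was the highest of all in 8 of the 12, WT sample 1 the lowest in 10, and HET sample 2 the highest HET sample in all 12, as in Per1. The summed level of the 12 activity genes ran from 41694 to 58573 in HET and from 37967 to 73205 in WT samples. Fkbp5, a glucocorticoid target, had 1376, 938 and 1034 normalized counts in HET samples, against 1530, 1099 and 1050 in WT samples, so that sample 1 was the highest in each genotype, where Per1 was lowest. Of the 9 glucocorticoid genes, 3 had that order (Fkbp5, Zbtb16 and Cdkn1a), and Sgk1 had the opposite one, with sample 1 the lowest in each genotype at 3245 normalized counts in HET and 2741 in WT. The other 5 had neither. The part of either response in the level of Per1 was not tested.

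**Figure D4:**
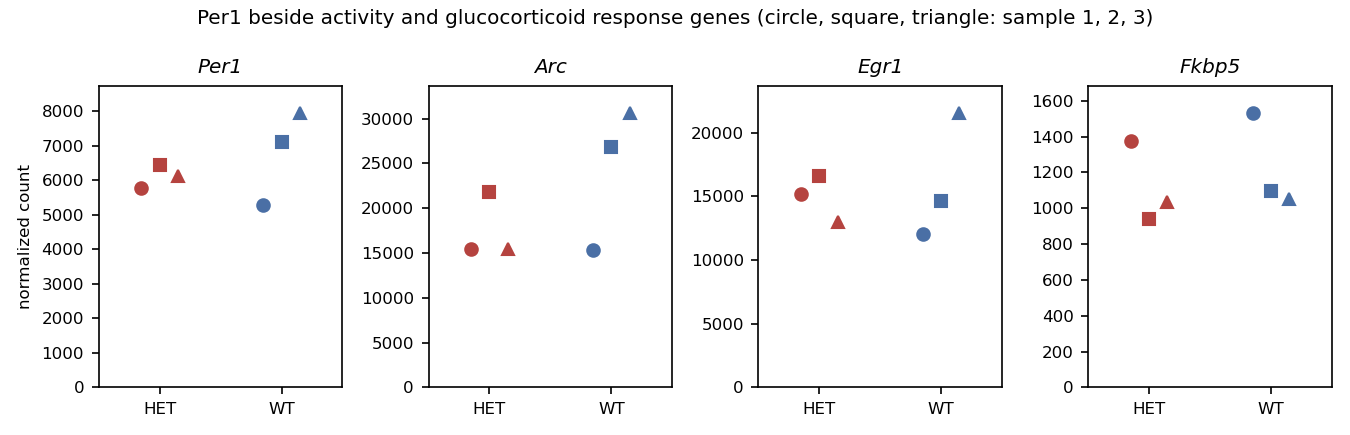
Normalized counts (y axes, from 0) of Per1, the activity genes Arc and Egr1 and the glucocorticoid target Fkbp5 in HET (left) and WT (right) samples; circles, squares and triangles are samples 1, 2 and 3. WT sample 3 holds the highest Per1, Arc and Egr1, and WT sample 1 the lowest Per1, Arc and Egr1.

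Outside the 10 genes, 13280 genes with a mean of at least 50 were ranked by the Pearson correlation of their log2 values with the phase index over the 6 samples, as a measure of likeness without a test. The most alike were Polg2, S100a16, 1110002E22Rik, Npdc1 and Notch1, with r between 0.97 and 0.99. The most opposite were Zfp131, Ptprk, Csrnp3, Atxn1l and Hif1a, with r between -0.99 and -0.97. With 6 libraries in common, 321 of the 13280 genes lay beyond 0.9 in either direction. Of the clock genes outside the 10, Csnk1e had the highest r (0.85, rank 249) and Ciart followed (0.78, rank 531), while Btrc, a ubiquitin ligase subunit that targets PER proteins, had the lowest (-0.90, rank 13080). Of the 5 genes on the side of Dbp in the index from outside the 10, Ciart and Tef (0.23) had positive r, and Nr1d2, Hlf and Bhlhe40 had negative r of -0.54, -0.55 and -0.62.

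Judged from their lowest values, the samples had been read to a depth of 27.1 to 48.2 M reads (M for 1e+06), WT sample 3 the least deeply. Markers of cortical excitatory neurons were present in every sample, and the hypothalamic genes Avp, Oxt, Hcrt and Pmch reached at most 6.80 normalized counts. Vip, the other gene of the hypothalamic list and also a marker of cortical interneurons, had 1101 to 1480. The summed level of 5 excitatory neuron markers was 190380 to 205290 in HET and 207910 to 213900 in WT samples. That of 5 interneuron markers was 27196 to 27584 in HET and 24077 to 26556 in WT samples. For 5 meningeal markers the sum was 2721 to 3091 in HET and 2400 to 2662 in WT samples, and for 5 striatal markers it was 2990 to 3295 in HET and 3548 to 4193 in WT samples. In these 4 of 8 marker lists the sums did not overlap between genotypes. How often sums of other genes do so was not computed. With each marker weighted equally, as the mean of centred log2 values, 2 of the 8 did not overlap, interneurons and meninges. The sum of the excitatory markers is mostly Camk2a, and 0 of its 5 markers were without overlap. The striatal sum is mostly Ppp1r1b, at 2247 to 2587 in HET and 2927 to 3305 in WT samples, with a log2 fold change of -0.34. The other 4 striatal markers overlapped. On the same scale Rgs9 was at 0.15 and Drd1 at 0.02, while Adora2a was at -0.29 and Drd2 at -0.36. Of the 5 interneuron markers 4 were above WT and 1, Pvalb, was below it, at a log2 fold change of -0.13. Gad1, Gad2 and Pvalb overlapped between genotypes. Over the 8 lists, 5 of 39 markers did not overlap (Slc32a1, Sst, Ogn and Slc6a20a, higher in HET, and Ppp1r1b, lower), beside 10.5% of all genes tested.

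Sums of 5 astrocyte markers were 36329 to 38746 in HET and 33879 to 38560 in WT samples, those of 5 microglial markers 8020 to 8624 in HET and 7224 to 9245 in WT samples, and those of 4 endothelial markers 5375 to 6159 in HET and 4841 to 5788 in WT samples. All 3 overlapped, and 0 markers of the 8 lists were at 0 in every sample. Sums of 5 oligodendrocyte markers ran from 113260 to 120700 in HET and from 116730 to 163100 in WT samples, highest in WT sample 2, which also had the highest phase index. The excitatory, microglial and striatal sums were highest in WT sample 2 as well. HET sample 2, next by the index, had an oligodendrocyte sum of 120140, below HET sample 1 at 120700 and WT sample 1 at 124180. The part of tissue makeup in the clock gene levels was not tested.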

How the data were processed

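The deposited table holds a normalized signal per gene, 1 column per sample. The submitters' processing notes name Salmon 0.11.2, R 3.6.0, DESeq2 1.19.11 and GRCm38, without their roles; no source used here gives the annotation release or the gene filter. The values are not raw counts. Within 0.1 reads, 78.8% to 85.9% of the lowest values but 21.2% to 42.3% of values of 10 to 20 reads were whole, so no count model was used and the depths are estimates.

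Symbols were matched for 18122 of 18160 identifiers. The test was limma-trend (limma 3.58.1, R 4.3.3) on log2(value + 1), with genotype as the only term, for genes averaging at least 10, the branch of the design for normalized values. Adjustment was by Benjamini-Hochberg over 15151 genes. On this scale the fold changes of low genes come out too small. The procedure was also run on simulated data in which every gene had the same SD between samples, unlike the genes here. The planted changes were larger than those of the clock genes. That run therefore does not show how well changes of their size would be found in these data. Permutation tests were exact and two-sided.

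The members, gene lists and index were chosen with earlier results of these data known. By rule, all 10 members were named, with Cyfip2, 14 genes of the pathway lists (a further one is counted but not reported here) and the 5 genes most alike and the 5 most opposite to the index. Tspan4, Nampt, Btrc, the activity and glucocorticoid genes and the single cell type markers were named after their values were seen. Gene positions were read from GENCODE M21 (GRCm38). The labels do not say whether sample numbers pair the samples. Same-numbered samples deviated from their group means with correlations of 0.13, 0.12 and -0.0052, and differently numbered samples with -0.16 to 0.046. With 3 samples per genotype, these values cannot settle whether the numbers pair them. No replicates held identical columns; their median absolute difference was 0.11 to 0.14 log2 units.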

Additional observations from a re-analysis of the deposited data

How the results depend on the processing

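No clock gene and no other pathway gene passed the threshold under any of the 16 alternatives (scaling, variance model, filter, pseudocount, threshold, block, array weights and leaving out each sample). Over all genes, 2 passed, Cyfip2 among them (adjusted p = 0.0027 by limma-trend). There was 1 by limma without the trend, 1 with a mean of at least 50, and 1 to 4 when a sample was left out. Cyfip2, at 64.4% of WT, did not itself pass by limma without the trend (adjusted p = 0.15). Per1, Per2, Per3, Cry1, Cry2 and Bhlhe41 stayed below WT in all 16, although leaving out 1 sample moved 5 of these 6, all but Cry1, by over 1.5 times. The sign changed for the other 4, whose fold changes are near 0. Variance model, filter, threshold and block left the fold change of every clock gene as it was, by construction. Scaling and pseudocount hardly moved it, so the kept directions rest on array weights and on leaving out samples. With array weights Arntl was at -0.022 and Clock at -0.022. When a sample was left out, Arntl lay between -0.039 and 0.091, Clock between -0.075 and 0.079, Nr1d1 between -0.10 and 0.040 and Dbp between -0.056 and 0.029. The cause was not tested. The index difference lay between -0.15 and -0.018 when a sample was left out. It was -0.03 for Dbp and Nr1d1 minus Arntl and -0.05 with Arntl, Clock, Npas2 and Cry1 on the other side. That last index also changed the order of the samples. WT sample 1 was the lowest by it, at -0.14, and WT sample 3, at 0.049, came next to WT sample 2 at the top.

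The sample number was also fitted as a replicate block, though the labels do not say that it pairs samples. With it 2 genes passed, no clock gene did, and the adjusted p of Cry1 was 0.54 by limma-trend. The 3 samples per genotype limit the precision: the interval of Arntl alone allows 88.2% to 115% of WT.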

Other observations

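The RNA-binding proteins CIRBP and RBM3, which rise as temperature falls and are known to act on clock transcripts, were measured beside 5 heat shock genes. Cirbp had 1502, 1686 and 1453 normalized counts in HET samples, against 1349, 1394 and 1318 in WT samples, and every HET sample lay above every WT sample. The log2 fold change of Cirbp was 0.19 ± 0.07 (SE), with an unadjusted p of 0.023 and an adjusted p of 0.93 by limma-trend. Rbm3 was at 0.11 ± 0.07 (SE) with overlap. Dnajb1, a heat shock co-chaperone, had 1986, 2151 and 2106 normalized counts in HET samples, against 2191, 2237 and 2539 in WT samples, and its log2 fold change was -0.16 ± 0.07 (SE). Of the remaining heat shock genes, Hsp90aa1 was at 0.08 ± 0.08 and Hspa1a at -0.04 ± 0.10 (log2 fold change ± SE). Hsph1 was at -0.09 ± 0.05 and Hspa1b at -0.13 ± 0.15 on the same scale. None of these 7 genes passed the adjusted threshold, and Cirbp and Dnajb1 were the 2 whose genotypes did not overlap, beside 10.5% of all genes tested. These genes were named after their values were seen.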
